A study of Homo sapiens with 12 samples.

Results

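The S100 genes encode small calcium-binding proteins, and 10 of them were followed here in the RNA of sorafenib-resistant and parental hepatocellular carcinoma cells. The 10 genes (S100A9, S100P, S100A4, S100A6, S100A8, S100A10, S100A11, S100A13, S100A14 and S100A16) were chosen by symbol out of 27249 genes with Ensembl identifiers, with their levels and their changes between resistant and parental cells already known. Every difference between groups given for them is therefore a description. Where a member is said to have passed, risen, fallen or been called, this is its place in a fit across all genes and no independent evidence, and its p-value is not given.

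RNA-seq libraries came from 2 human liver cancer cell lines, Huh7 and HepG2, both of WT genotype. Each line was represented by 3 parental samples and by 3 samples of cells made resistant to sorafenib, a multikinase inhibitor used against advanced hepatocellular carcinoma. Resistance was raised by repeated exposure from a starting dose of 10 μmol, with rising doses over 8 months, and whether the drug was present at harvest is not given in the sources used here. Each resistant line was raised from 1 parental line, nothing in the labels says that its samples came from separate cultures, and the p-values below measure only the spread between these samples, which may be technical.

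An S100 protein is built from a pair of EF-hands, helix-loop-helix calcium sites, and usually works as a dimer that opens a binding surface when calcium enters. Inside the cell the dimers hold partners such as annexins, the myosin heavy chain and ezrin. Outside the cell some of them act on the receptors AGER (RAGE) and TLR4 as danger signals. S100A8 and S100A9 form calprotectin, the abundant antimicrobial dimer of neutrophils and monocytes, while S100A4, S100A6, S100A10, S100A11 and S100P are known from many epithelial cancers. Most of the family lies in a single cluster on chromosome 1, the epidermal differentiation region, and S100P lies apart on chromosome 4.

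The promoters of S100A9, S100P and S100A11 are printed because these 3 genes had the largest resistant-to-parental ratios in Huh7 among the members above 1 FPKM in every Huh7 sample. The windows run from 250 bases before to 50 bases after the annotated start (RefSeq, GRCh38.p14). S100A9 covers chr1:153357604-153357903 on the plus strand, S100P covers chr4:6693628-6693927 on the plus strand, and S100A11 covers chr1:152036955-152037254 on the minus strand. Capitals mark TATAAA in S100A9 and S100P, GGGNNTTTC (NF-kB letters, as GGGAATTTC) in S100A9 and TTNNGCAA (C/EBP letters) in S100A11.
S100A9: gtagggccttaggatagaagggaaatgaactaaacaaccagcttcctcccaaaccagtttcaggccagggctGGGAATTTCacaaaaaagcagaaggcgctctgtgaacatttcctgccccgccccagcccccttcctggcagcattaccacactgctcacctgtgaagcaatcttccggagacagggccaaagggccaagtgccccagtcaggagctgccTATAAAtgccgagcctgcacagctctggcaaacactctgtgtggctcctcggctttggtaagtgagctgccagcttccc
S100P: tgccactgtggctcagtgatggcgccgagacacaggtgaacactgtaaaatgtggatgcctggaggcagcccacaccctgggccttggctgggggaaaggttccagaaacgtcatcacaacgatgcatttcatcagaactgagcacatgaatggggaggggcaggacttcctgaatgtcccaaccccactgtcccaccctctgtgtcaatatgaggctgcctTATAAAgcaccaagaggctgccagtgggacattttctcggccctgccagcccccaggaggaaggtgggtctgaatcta
S100A11: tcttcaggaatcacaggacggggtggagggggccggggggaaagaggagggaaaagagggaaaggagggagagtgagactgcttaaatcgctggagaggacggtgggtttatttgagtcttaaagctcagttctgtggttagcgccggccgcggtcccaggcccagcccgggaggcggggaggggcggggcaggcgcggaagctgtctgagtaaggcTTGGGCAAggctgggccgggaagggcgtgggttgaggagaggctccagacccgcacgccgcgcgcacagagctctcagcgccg

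The TATA letters stood 29 bases before the start in S100A9, 28 in S100P and 31 in S100A4, which gave 3 of the 5 members that reached 1 FPKM in at least 3 samples of a line. They also stood 29 bases before an annotated start in S100A8 and in S100A13, which did not reach that level. In all, 5 of the 10 members held them in at least 1 window. Over all 35116 RefSeq promoter windows, 11.5% held TATAAA on either strand. This share is per window, while the 10 members were counted per gene over 15 windows, so these measures are unlike. The S100A9 window also held the NF-kB letters, found in 4.78% of all windows, and the S100A11 window held the C/EBP letters, found in 10.5%. The S100A6 window held none of the 4 motifs searched, and no member held the AP-1 letters TGANTCA, found in 7.71% of all windows. None of the marked motifs overlapped another. The S100A9 and S100P windows held 5 CpG dinucleotides each, S100A4 held 8, S100A11 held 22 and S100A6 held 31, against a median of 14 over all windows. A match of letters is a description of the window and not a binding site.

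The values are FPKM, reads or fragments scaled by exon length and by the depth of the sample, so that levels can be set side by side between genes. Behind the samples stood 12290130 to 19285958 reads, and all 120 member values fell within 0.05 of a whole number of reads. B2M, a gene that nearly every cell uses, was listed low in these tables (1.10 to 2.45 FPKM, against 209 to 715 FPKM for GAPDH), so a member at or near 0 is given as listed at that value and is not read as absent. The lines kept their hepatocyte markers: 12 of 12 had a mean of at least 1 FPKM in every group, with a sum of 3968 to 8170 FPKM. The 12 myeloid markers, the cells best known for S100A8 and S100A9, summed to 2.42 to 8.20 FPKM, with 1 or 2 of 12 reaching a mean of 1 FPKM. In resistant against parental Huh7, CD14 was listed at means of 1.58 and 0.514 FPKM and ITGAM at 0.610 and 0.119 FPKM, while LYZ stood at 0.238 and 0.601 FPKM, and in HepG2 LYZ stood at 5.32 and 4.93 FPKM. The neutrophil enzyme MPO stayed at or below a mean of 0.0110 FPKM. These myeloid markers were examined after their values were seen, and their part in the S100A9 values was not tested. Lymphoid markers summed to 2.80 to 5.47 FPKM, fibroblast markers to 3.60 to 26.4 FPKM and keratinocyte markers to 8.29 to 27.5 FPKM, the last almost all from KRT10. In bulk RNA, a change in the share of cells that express a gene cannot be told apart from a change in its level per cell.

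In sorafenib-resistant Huh7 cells, 5 S100 genes rose: S100A9, S100P, S100A11, S100A6 and S100A4. In sorafenib-resistant HepG2 cells S100P fell, and no other member passed the thresholds in that line. The FPKM summed over the 10 members was 529 ± 65.1 (SD, n = 3) in resistant and 85.7 ± 12.2 in parental Huh7, and 97.8 ± 14.6 in resistant and 257 ± 65.0 in parental HepG2. S100P alone supplied 44.4% ± 0.673 of this sum in resistant Huh7, 19.9% ± 2.29 in parental Huh7, 35.9% ± 1.59 in resistant HepG2 and 79.3% ± 3.10 in parental HepG2 (SD, n = 3 each).

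**Figure D1:**
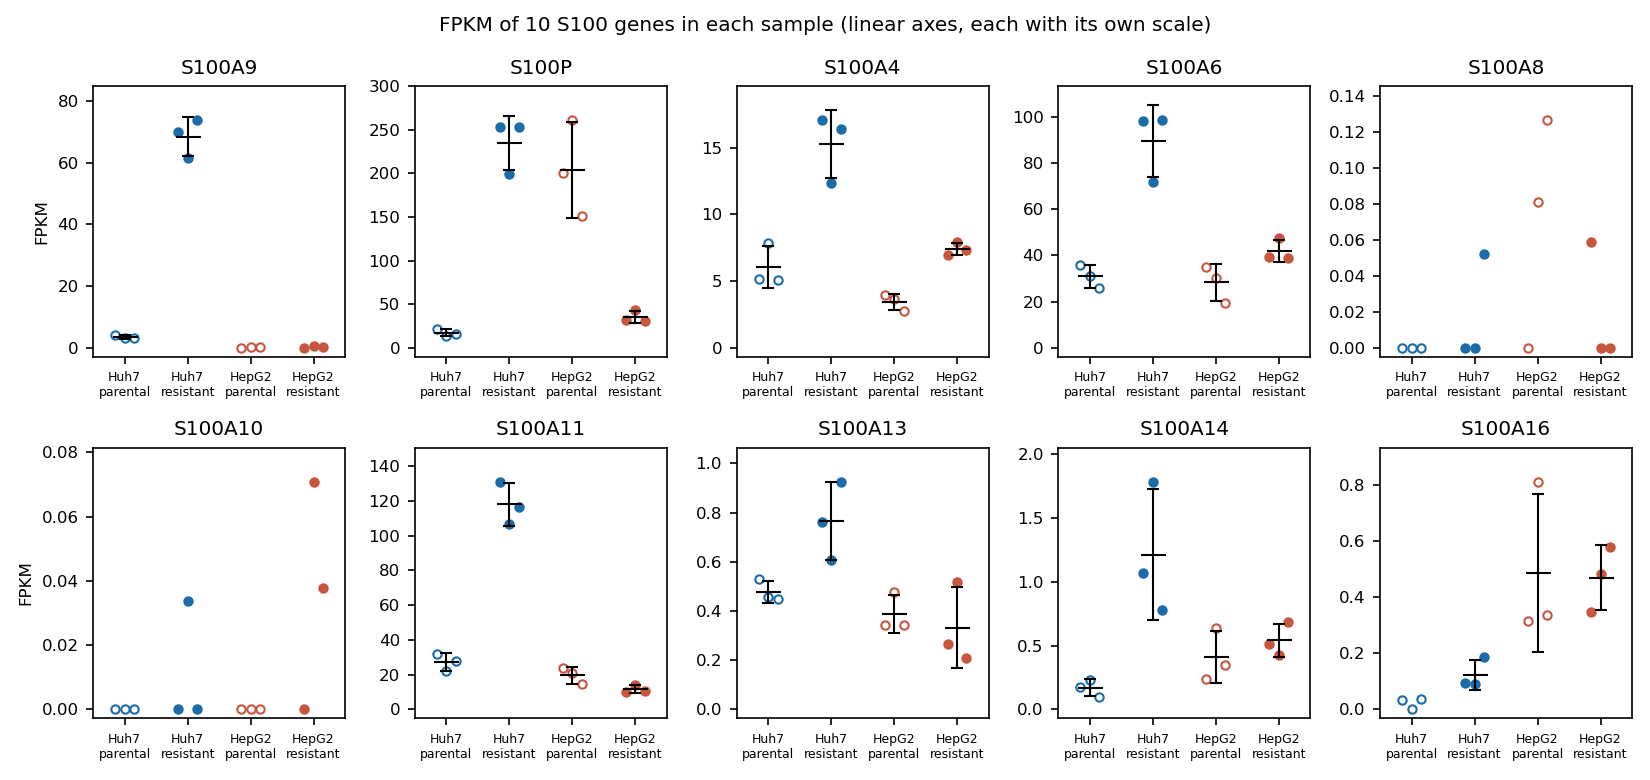
FPKM of the 10 S100 genes (vertical axes, linear, a separate scale for each gene) in parental (open points) and resistant (filled points) Huh7 (blue) and HepG2 (red) samples, with black marks for the mean and SD of 3 samples where none of them is at 0. S100P is high in resistant Huh7 and in parental HepG2, and S100A8 and S100A10 do not exceed 0.126 and 0.0709 FPKM.

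S100A9, the larger subunit partner in calprotectin, was listed in resistant Huh7 at 70.1, 61.6 and 73.8 FPKM and in parental Huh7 at 4.06, 3.09 and 3.11 FPKM. The resistant samples lay far above the parental ones, with a ratio of means of 20.0 and a log2 fold change of 3.98 ± 0.13 (SE). In HepG2 it stood at 0, 0.474 and 0.201 FPKM in resistant and at 0, 0.141 and 0.110 FPKM in parental samples, from 0 to 5 reads each. These HepG2 values lay at the limit of counting, so S100A9 was not tested in that line. The mean of resistant Huh7 was 230 times the floor of 3 reads in resistant HepG2. As a resistant HepG2 sample exceeded that floor, with 5 reads, this is not a lower bound on the fold difference. The mean of parental Huh7 was 8.92 times the floor in parental HepG2, whose samples held 0 or 1 read.

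S100A8, the calprotectin partner of S100A9, was listed at or near 0 in every sample. Its reads numbered 0, 0 and 1 in resistant Huh7, 0 in each parental Huh7 sample, 1, 0 and 0 in resistant HepG2 and 0, 1 and 2 in parental HepG2. At this depth its groups cannot be told apart. In resistant Huh7 the mean of S100A9 was at least 438-fold higher than the floor of S100A8, and in parental Huh7 at least 19.4-fold higher. These bounds compare listed values and do not show that S100A8 RNA was absent.

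S100P, a placental S100 protein that binds ezrin and is known from several carcinomas, had the highest mean of the 10 genes in resistant Huh7 and in parental HepG2. Its values were 253.0, 199.1 and 253.2 FPKM in resistant and 21.6, 13.5 and 16.2 FPKM in parental Huh7, a ratio of means of 13.7 and a log2 fold change of 3.72 ± 0.18 (SE). In HepG2 they were 32.1, 43.0 and 30.6 FPKM in resistant and 201.0, 261.3 and 151.1 FPKM in parental samples. S100P thus fell in resistant HepG2, with a log2 fold change of -2.48 ± 0.22 (SE), the parental mean being 5.80 times the resistant mean. Resistant and parental samples stayed apart in both lines, and the parental lines themselves stood apart, with 11.9 times as much S100P in parental HepG2 as in parental Huh7. Among Ensembl genes with a group mean above 0, S100P ranked 108 of 23478 in resistant Huh7 and 2461 of 24178 in parental Huh7. In HepG2 it ranked 1042 of 23001 in resistant and 95 of 22730 in parental samples.

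S100A11 (calgizzarin) is a partner of annexin A1. In Huh7 it was listed at 131.2, 106.6 and 116.5 FPKM in resistant and at 32.1, 21.9 and 28.0 FPKM in parental samples. Its log2 fold change was 2.08 ± 0.15 (SE), and the groups were far apart. In HepG2 it stood at 9.90, 14.2 and 10.7 FPKM in resistant and at 23.9, 20.9 and 14.3 FPKM in parental samples. The log2 fold change in HepG2 was -0.70 ± 0.21 (SE), within the thresholds, and the highest resistant sample lay just under the lowest parental one.

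S100A6 (calcyclin), linked to proliferating cells, was listed at 98.4, 71.7 and 98.6 FPKM in resistant and at 36.0, 31.2 and 25.9 FPKM in parental Huh7. Its log2 fold change was 1.50 ± 0.17 (SE), with every resistant sample above every parental one. In HepG2 it was listed at 39.3, 47.5 and 39.0 FPKM in resistant and at 35.0, 30.4 and 19.4 FPKM in parental samples, a log2 fold change of 0.59 ± 0.22 (SE) that did not pass the thresholds.

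S100A4 (metastasin), a partner of non-muscle myosin known for its role in cell motility, lies near S100A6 in the cluster, with S100A5 between them. It was listed at 17.1, 12.4 and 16.4 FPKM in resistant and at 5.16, 7.88 and 5.07 FPKM in parental Huh7, a log2 fold change of 1.22 ± 0.18 (SE). In HepG2 it was listed at 6.97, 7.90 and 7.31 FPKM in resistant and at 3.94, 3.65 and 2.79 FPKM in parental samples, a log2 fold change of 0.92 ± 0.15 (SE). S100A4 and S100A6 were thus higher in every resistant sample of both lines, and the HepG2 values stayed below the fold threshold. With a pseudocount of 0.1 and with limma-voom on reads, S100A4 passed in HepG2 as well (log2 fold changes of 1.09 and 1.11). With the trend of fold change on GC content removed, it missed the fold threshold in Huh7 (0.73).

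**Figure D2:**
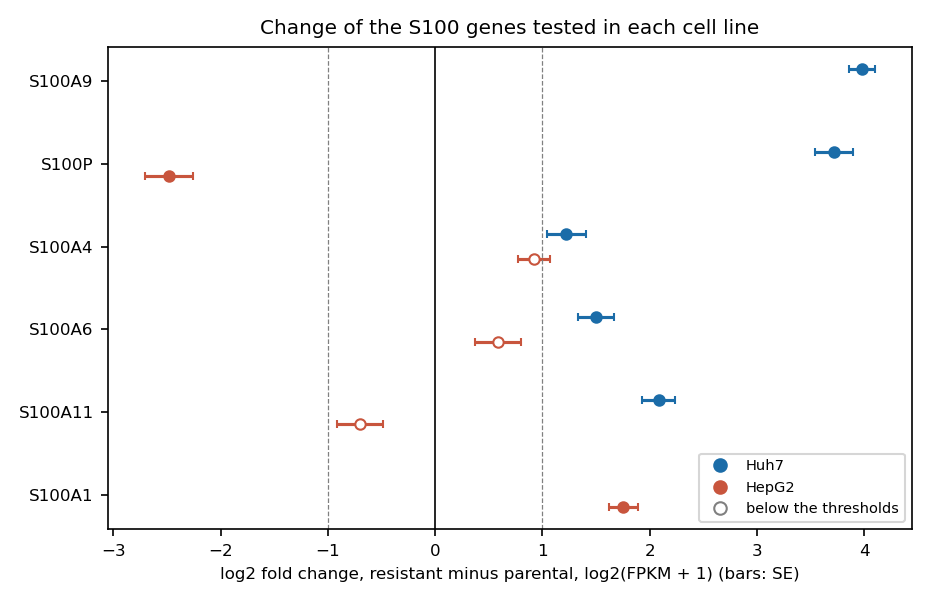
Log2 fold change (horizontal axis, resistant minus parental, log2(FPKM + 1)) with its SE for each S100 gene tested, in Huh7 (blue) and HepG2 (red), where filled points passed both thresholds and dashed lines mark log2 fold changes of -1 and 1. S100P lies at 3.72 in Huh7 and at -2.48 in HepG2, and S100A1, which is not among the 10 genes, at 1.75 in HepG2.

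A gene was tested in a line where it had at least 1 FPKM in at least 3 of its 6 samples, and was called where limma gave a Benjamini-Hochberg adjusted p under 0.05 and a log2 fold change beyond 1. Of the 10 members 5 were tested in Huh7 and all 5 were called higher, where 22.6% of 12554 genes tested were called, 8.59% higher and 14% lower. In HepG2 4 were tested and 1 was called, lower, where 6.27% of 11762 genes were called, 3.29% higher and 2.98% lower. Nothing is read from these shares, as the members were chosen with their changes known. The median log2 fold change of the tested members was 2.08 in Huh7 and -0.06 in HepG2, beside -0.04 and 0.12 over all genes tested. Of all 10 members, 8 had every resistant sample above every parental one in Huh7 and none had the reverse. In HepG2 2 members lay above and 2 below. These counts are over all members, also those too low to be tested. No share over all listed genes was worked out beside them, so nothing is read from them. Among tested members alone, 5 of 5 in Huh7 and 4 of 4 in HepG2 had groups that did not overlap. Over all genes tested, in either direction, these shares were 74.5% and 40.4%, and nothing is read from them either.

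The change in HepG2 minus the change in Huh7 was -6.20 ± 0.31 (SE) on the log2 scale for S100P, -2.78 ± 0.28 for S100A11 and -0.91 ± 0.30 for S100A6. For S100A4 it was -0.30 ± 0.24, which did not pass. Of the 4 members tested in both lines 3 were called, where 56.6% of 10688 genes tested in both lines were called. S100A9 entered this fit through its Huh7 values alone and was also called, which made 4 of 5, where 56.7% of all 13628 genes in the fit were called. With 0 to 5 reads in each HepG2 sample, its fitted difference of -3.82 restates the Huh7 change against the limit of counting. For S100A6 the call was lost without resistant replicate 1 or 3 or parental replicate 3 of Huh7 (-0.83, -0.83 and -0.79).

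The members were richer in G and C than most genes, measured in the longest transcript of each gene. They stood at 52.8% to 60.2% (median 55.2%), against a median of 46.7% over the genes tested in Huh7. Across genes, which are not independent replicates, the log2 fold change rose with GC content in Huh7 (Spearman's rho 0.62) and hardly in HepG2 (0.04). With this trend removed, S100A9 stood at 3.48, S100P at 3.32 and S100A11 at 1.63 in Huh7, all still called. S100A6 at 0.96 and S100A4 at 0.73 then missed the fold threshold, which left 3 of 5 called, and the difference between the lines for S100A6 shrank to -0.57 and was not called. How much of the change follows from GC content was not tested.

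**Figure D3:**
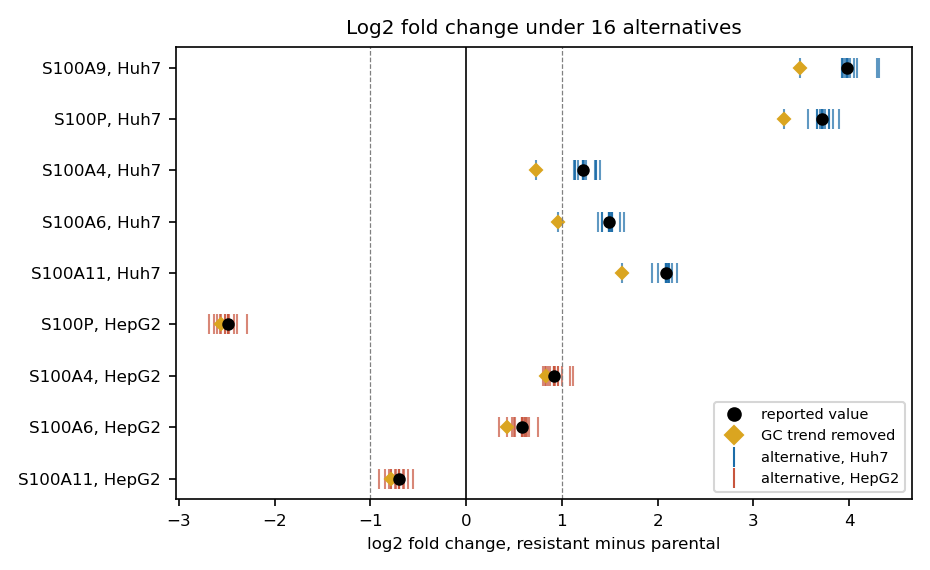
Log2 fold change (horizontal axis, resistant minus parental) of each tested S100 gene in each line as reported (black points) and under 16 alternatives (ticks, blue for Huh7 and red for HepG2), with the removal of the GC trend as yellow diamonds. No value crosses 0, and with the GC trend removed S100A4 (0.73) and S100A6 (0.96) in Huh7 fall inside the dashed lines at -1 and 1.

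The remaining members were listed low. S100A14, a cytoplasmic S100 protein of epithelia, had 26, 44 and 19 reads in resistant and 4, 5 and 2 reads in parental Huh7, with mean levels of 1.21 ± 0.517 and 0.168 ± 0.0677 FPKM (SD, n = 3). S100A13, which takes part in the release of fibroblast growth factor without a signal peptide, had 32, 26 and 39 reads in resistant and 21, 17 and 16 reads in parental Huh7. S100A16, a widely expressed member, had 3, 3 and 6 reads in resistant and 1, 0 and 1 reads in parental Huh7. For each of these 3 genes the Huh7 groups did not overlap, and in HepG2 all 3 overlapped. None reached 1 FPKM in 3 samples of a line, so none was tested, and nothing is read from these overlaps.

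S100A10 (p11), which forms a tetramer with annexin A2 at the plasma membrane, was listed at 0 to 2 reads per sample. Of its span 99.4% lies under a NONCODE gene on the opposite strand, which was listed at a mean of 3.71 FPKM in resistant and 1.99 FPKM in parental Huh7 and at 0.734 and 0.713 FPKM in HepG2. That gene also covers 66.7% of S100A11. S100A13 shares 99.9% of its span with a NONCODE gene on its own strand, S100A4 shares 67.4% and S100A6 31.5% with others on the opposite strand, and S100A3 lies within S100A4. S100A8, S100A9, S100A14 and S100A16 share no base with another listed gene, and S100P shares 2. These shares are of whole gene spans, introns included, and do not show how many exon bases are shared. Whether reads were counted by strand is not given in the sources used here. Whether reads of such overlapping pairs were mixed cannot be told, and their part in these values was not tested.

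The order of the levels differed between the groups. In resistant Huh7 it ran from S100P (mean 235 ± 31.2 FPKM, SD, n = 3) through S100A11 (118 ± 12.4), S100A6 (89.6 ± 15.5) and S100A9 (68.5 ± 6.29) to S100A4 (15.3 ± 2.53). In that order only S100A6 and S100A9 overlapped. In parental Huh7 S100A6 (31.0 ± 5.02 FPKM) and S100A11 (27.4 ± 5.14) led and overlapped, ahead of S100P (17.1 ± 4.12), S100A4 (6.04 ± 1.59) and S100A9 (3.42 ± 0.553). In resistant HepG2 S100A6 (41.9 ± 4.85) and S100P (35.2 ± 6.76) overlapped at the top, ahead of S100A11 (11.6 ± 2.31) and S100A4 (7.39 ± 0.469). In parental HepG2 S100P (204 ± 55.1) stood apart from S100A6 (28.3 ± 7.99) and S100A11 (19.7 ± 4.89), which overlapped, with S100A4 (3.46 ± 0.597) below them.

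Of the other S100 genes, 10 of 11 stayed below 1 FPKM in every sample, and the 7 genes of the fused type such as FLG (filaggrin) did not exceed 0.131 FPKM. The exception was S100A1, best known as a regulator of calcium handling in heart muscle. It rose in resistant HepG2, from 1.53, 1.64 and 1.39 FPKM in parental to 6.86, 8.20 and 7.46 FPKM in resistant samples, a log2 fold change of 1.75 ± 0.14 (SE, limma adjusted p = 0.000288, higher in 3 of 3 resistant samples). In Huh7 it was listed at 0.311 ± 0.059 FPKM in resistant and 0.167 ± 0.0394 FPKM in parental samples (SD, n = 3) and was not tested. S100A1 shares 83.5% of its span with S100A13 on the opposite strand, and S100A13 was listed at 0.332 ± 0.164 FPKM in resistant and 0.388 ± 0.0771 FPKM in parental HepG2.

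Chromosome 1 holds 17 S100 genes over 1.65 Mb, among them 9 of the members. Within this stretch and 500 kb on either side lie 73 further listed genes, of which 22 were tested in Huh7. Of these 5 rose and 1 fell, with a median log2 fold change of 0.19. The 6 calls became 3 with the GC trend removed and 4 without resistant replicate 1, without parental replicate 2 or with a filter of 1 FPKM in all 6 samples. In HepG2 21 were tested and limma called none, with 7 at an unadjusted p under 0.05 and 2 called by limma-voom on reads, and with a median of -0.06. The largest changes among the neighbours in Huh7 were those of RF00405, a small RNA (1.67 ± 0.36, SE, limma adjusted p = 0.00295), AL513523.1 (-1.24 ± 0.16, adjusted p = 0.000222), the ribosomal protein gene RPS27 (1.05 ± 0.12, adjusted p = 0.000134) and the fatty acid transporter gene SLC27A3 (1.05 ± 0.11, adjusted p = 0.000103). Without parental replicate 2 RPS27 (0.996), and without resistant replicate 1 or with the GC trend removed SLC27A3 (0.99 and 0.51), missed the fold threshold. The 5 rises among 22 neighbours stand beside 8.59% of all genes tested.

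**Figure D4:**
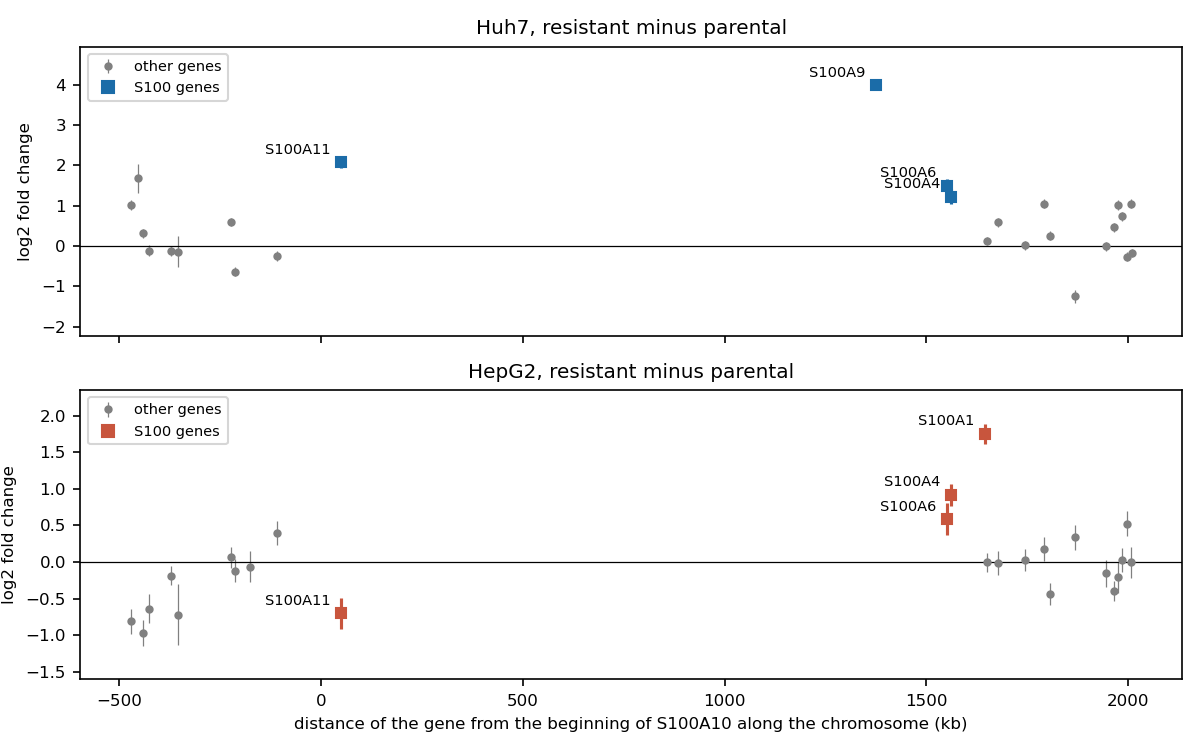
Log2 fold change with its SE (vertical axes, resistant minus parental) of the tested genes of the chromosome 1 S100 cluster and its flanks by distance from the beginning of S100A10 (horizontal axis, kb), in Huh7 (upper panel) and HepG2 (lower panel), with S100 genes as coloured squares and other genes as grey points. In Huh7 S100A9 (3.98), S100A11 (2.08) and S100A6 (1.50) lie above most neighbours, whose median is 0.19.

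Annexins are the membrane-binding partners of several S100 dimers. Of 13 annexins 9 were tested in Huh7, where ANXA6 rose (1.36 ± 0.15, SE, limma adjusted p = 0.000116) and ANXA3 fell (-1.03 ± 0.14, adjusted p = 0.000326). In HepG2 7 were tested and limma called none, with 0 at an unadjusted p under 0.05 and 0 called by limma-voom on reads. ANXA2, the partner of S100A10, was listed at 99.4 ± 6.91 FPKM in resistant and 72.0 ± 7.17 FPKM in parental Huh7 and at 21.6 ± 0.740 and 21.7 ± 5.56 FPKM in HepG2 (SD, n = 3). Its log2 fold changes of 0.46 and 0.03 did not pass the fold threshold. ANXA1, a partner of S100A11, was listed at 0.992 ± 0.111 FPKM in resistant and 0.804 ± 0.0665 FPKM in parental Huh7. In HepG2 it was listed at 0.228 ± 0.0722 and 0.190 ± 0.0493 FPKM, and it was tested in neither line.

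Of 22 binding partners 17 were tested in Huh7. EZR (ezrin), the membrane-to-actin linker bound by S100P, rose (1.09 ± 0.15, SE, limma adjusted p = 0.000276), as did the co-chaperone gene STIP1 (1.03 ± 0.13, adjusted p = 0.000182), and SUGT1, a co-chaperone bound by S100A6, fell (-1.05 ± 0.11, adjusted p = 0.000109). EZR was listed at 217.5, 207.1 and 214.4 FPKM in resistant and at 115.5, 105.5 and 80.7 FPKM in parental Huh7, and at 58.5, 70.5 and 68.8 FPKM in resistant and 94.8, 122.7 and 87.3 FPKM in parental HepG2. Like S100P it was thus higher in resistant Huh7 and lower in resistant HepG2, where its log2 fold change of -0.61 ± 0.17 did not pass the fold threshold. In HepG2 14 partners were tested, and PLG, the gene of plasminogen, which the S100A10 complex binds at the cell surface, fell (-1.08 ± 0.15, adjusted p = 0.00244). With a filter of 1 FPKM in all 6 HepG2 samples, 0 partners were called in that line. AHNAK, a scaffold of the S100A10 complex, was listed at 1.28 ± 0.0321 FPKM in resistant and 0.864 ± 0.147 FPKM in parental Huh7, and at 0.524 ± 0.0834 and 0.611 ± 0.146 FPKM in HepG2.

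AGER and TLR4, the best known receptors for secreted S100 proteins, were listed low. AGER stood at means of 0.364 to 0.640 FPKM over the 4 groups and TLR4 at 0.00289 to 0.00555 FPKM, and neither was tested. BSG (basigin), a receptor for S100A9, was listed at 65.4 ± 17.0 FPKM in resistant and 44.0 ± 11.8 FPKM in parental Huh7 and at 54.7 ± 24.4 and 30.8 ± 1.23 FPKM in HepG2 (SD, n = 3), and its groups overlapped in both lines. MYD88, the adaptor below TLR4, rose in resistant Huh7 (1.29 ± 0.14, SE, limma adjusted p = 0.000107). ALCAM, a cell adhesion molecule that binds S100B, fell in Huh7 (-1.19 ± 0.16, adjusted p = 0.000304) and in HepG2 (-1.87 ± 0.20, adjusted p = 0.000901). LY96, the TLR4 co-receptor, fell in HepG2 (-1.34 ± 0.30, adjusted p = 0.0174). With the GC trend removed, every annexin, partner and receptor named as called in Huh7 missed the fold threshold, with ANXA6 at 0.85, ANXA3 at -0.39, EZR at 0.78, STIP1 at 0.54, SUGT1 at -0.21, MYD88 at 0.94 and ALCAM at -0.51. Without parental Huh7 replicate 3 it was missed by EZR (0.94), STIP1 (0.93), SUGT1 (-0.99) and ANXA3 (-0.93), without resistant replicate 1 by ANXA3 (-0.95) and without resistant replicate 3 by SUGT1 (-0.97). LY96 was not called without resistant HepG2 replicate 3 (-1.12, limma adjusted p = 0.0574) or with no filter on low values (-1.34, limma adjusted p = 0.0719), and it had passed the filter through its parental samples alone.

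**Figure D5:**
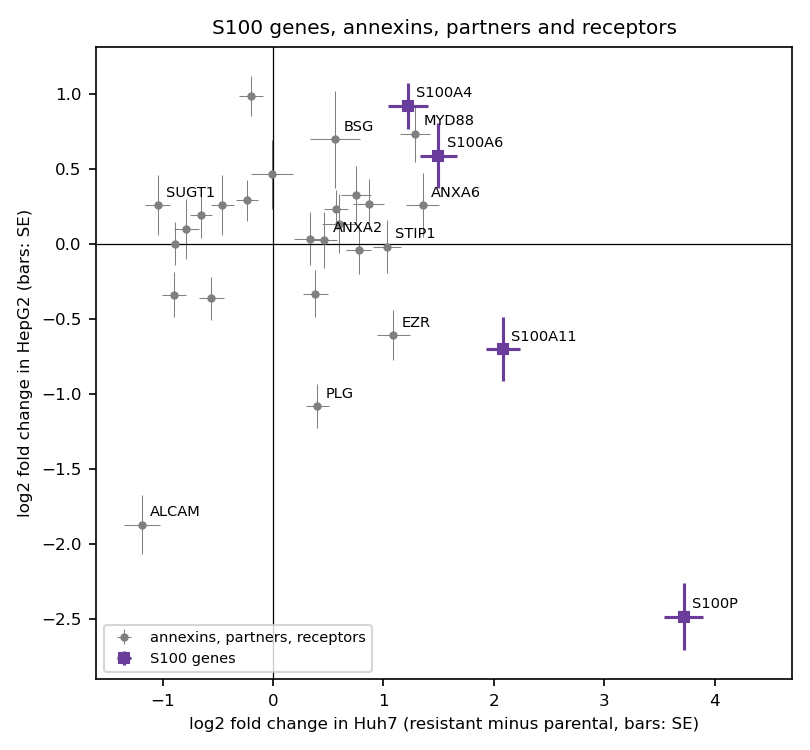
Log2 fold change in HepG2 (vertical axis) against that in Huh7 (horizontal axis), with SE bars, for the annexins, binding partners and receptors tested in both lines (grey) and for the 4 S100 genes tested in both (purple squares). S100P (3.72 and -2.48), S100A11 (2.08 and -0.70) and EZR (1.09 and -0.61) lie to the lower right, higher in resistant Huh7 and lower in resistant HepG2.

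The genes whose profile over the 12 samples was nearest to each called member were taken from 13627 genes by the root mean square difference of centred log2(FPKM + 1). For S100A9 the nearest was AGR2, a secretory disulfide isomerase, at a difference of 0.33, with means of 46.1 FPKM in resistant and 2.95 FPKM in parental Huh7 and of 0.247 and 0.205 FPKM in HepG2. The trypsinogen gene PRSS3 (0.38) and the histone gene HIST1H4L (0.42), whose reads may be split among near-identical copies, followed. For S100P the nearest was the cytidine deaminase gene CDA (0.52), with means of 20.2 FPKM in resistant and 0.886 FPKM in parental Huh7 and of 1.57 and 8.32 FPKM in HepG2, followed by the hepcidin gene HAMP (0.73) and the multicopy small nuclear RNA gene RNU1-1 (0.82). For S100A11 they were TRIM31 (0.27), RAMP2 (0.28) and SLCO2A1 (0.30), for S100A6 MRPS34 (0.19), ANXA6 (0.20) and ELOB (0.21), and for S100A4 LRRC59 (0.18), PSMD3 (0.22) and CTSL (0.23). These are likenesses over 12 samples of 4 groups, and they carry no test.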

How the data were processed

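RNA-seq of 12 samples (4 groups of 3) was analysed, with groups and replicate numbers from the labels. The values are FPKM as deposited, made by the authors by steps that are not given in the sources used here. The submitters' processing notes name bcl2fastq and GRCh38. For RNA extraction, the kit in the labels is not the reagent in the methods. The unit is not stated and was read from the values, which times exon length (GENCODE) fall on whole multiples of 1 step per sample, so RPKM cannot be told apart from FPKM. Of the values up to 2000 reads, 96.3% to 96.5% lay within 0.05 of a whole read. As no molecular identifiers were used, a read is not a molecule, and floors of 3 reads cover counting error only.

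In each line, testing covered genes that reached 1 FPKM in 3 or more of its 6 samples, on log2(FPKM + 1), a scale that understates changes of low genes, with limma 3.58.1 (R 4.3.3, variance trend, Benjamini-Hochberg adjustment), and the interaction was fitted in all 12 samples. Genes passed at an adjusted p under 0.05 and, within a line, a log2 fold change beyond 1. The code was tested on simulated data. Tables were handled with Python 3.11.15 and pandas 2.3.3.

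The members, gene lists and rules were chosen with earlier results of these data known. Of each list and line, at most 4 called genes with the largest change are named, besides 6 named by role (BSG, TLR4, AGER, ANXA2, ANXA1, AHNAK), and the 3 nearest genes of each called member. Alternatives covered the pseudocount, filters, scaling, GC trend, variance trend, joint fit, replicate block, limma-voom on reads and leaving out each replicate. Promoters matched for all 10 members (15 windows).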

Additional observations from a re-analysis of the deposited data

Results flagged for a closer look

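The change with resistance differed between the lines by limma's interaction of line and resistance (adjusted p under 0.05) in 4 of 5 members and in 16 of 20 further named genes tested, where 56.7% of all genes tested did. Among genes tested in both lines these were 3 of 4 members and 12 of 15 named genes, where 56.6% of all such genes passed. Nothing is read from these shares. The members were chosen with their changes known, and most named genes were picked for a large change in these same samples. S100A9, S100A1, ANXA3, AHNAK and LY96 were tested in a single line, with low values in the other. For S100A9, S100A1 and LY96 the difference restates the change of the tested line against those low values. For ANXA3 and AHNAK it also holds the untested HepG2 values, at 0.68 and -0.37 beside Huh7 changes of -1.03 and 0.29. For the S100 genes chosen here the differences, as the change in HepG2 minus the change in Huh7 on the log2 scale, were -6.20 for S100P, -3.82 for S100A9, -2.78 for S100A11 and -0.91 for S100A6. The value of S100A9 rests on 0 to 5 reads per HepG2 sample.

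For S100A1 the difference was 1.59, higher in resistant HepG2. Among the annexins it was 0.68 for ANXA3 and -1.10 for ANXA6. Among the binding partners it was -0.37 for AHNAK, 1.31 for SUGT1, -1.70 for EZR, -1.48 for PLG and -1.05 for STIP1. Among the receptors it was -1.27 for LY96 and -0.68 for ALCAM, and among other EF-hand genes -0.92 for CAPN1, 2.11 for CETN2 and 1.53 for CALU. Among the neighbours of the cluster it was -0.87 for SLC27A3, 1.58 for AL513523.1 and -1.05 for RPS27.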

How the results depend on the processing

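All 9 log2 fold changes of tested members kept their sign under all 16 alternatives. In Huh7 the 5 members called became 3 with the GC trend removed. The 2838 genes called in Huh7 became 1490 with the GC trend removed and 4295 with limma-voom on reads. They became 4187 with a pseudocount of 0.1 and 1950 with a filter of 1 FPKM in all 6 samples. In HepG2 the 1 member called became 2 with a pseudocount of 0.1 and 2 with limma-voom on reads, where S100A4 was added. The 737 genes called in HepG2 became 1157 with limma-voom on reads and 1101 with a pseudocount of 0.1. With the filter in all 6 samples they became 558. The causes were not tested. Leaving out each replicate gave 5 members in Huh7, 1 in HepG2 and 3 to 4 by the interaction. The difference between the lines for S100A4 turned from -0.30 to 0.05 with the GC trend removed, and passed in neither. In HepG2 387 of 737 called genes were higher, against 279 of 723 with the GC trend removed, 285 of 713 with median-ratio scaling and 309 of 715 with upper-quartile scaling, and in Huh7 1079 of 2838 against 703 of 1490 with the GC trend removed. Over all genes tested in HepG2 the median change moved from 0.12 to 0.01 with the GC trend removed. With a replicate block the members called stayed at 5, 1 and 4, and all genes called were 2841, 779 and 7985. Whether the replicate numbers pair the samples cannot be settled with 3 samples per group. Same-numbered samples correlated at -0.23 to 0.08 in Huh7 and at -0.01 to 0.44 in HepG2. In Huh7 1 of 3 and in HepG2 2 of 3 correlated best with their own number. S100A8 and S100A10 in both lines and S100A9 in HepG2 were listed at 0 to 5 reads per sample, too few to compare their groups.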

Other observations

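In each list of other EF-hand proteins limma called at most 1 gene per line. Over all genes tested, 22.6% were called in Huh7 and 6.27% in HepG2. Of 7 calpains and relatives with 5 EF-hands, 6 were tested in Huh7 and CAPN1, the large subunit of the calcium-activated protease mu-calpain, rose (log2 fold change 1.36 ± 0.17, SE, limma adjusted p = 0.000192, higher in 3 of 3 resistant samples), and in HepG2 5 were tested and limma called none, with 3 at an unadjusted p under 0.05 and 0 called by limma-voom on reads. With the GC trend removed CAPN1 stood at 0.83 and missed the fold threshold. Of the 9 calmodulin and centrin genes looked for, 7 were listed and 4 were tested in HepG2, where CETN2, a centriole protein, rose (1.43 ± 0.14, adjusted p = 0.000743). In Huh7 5 were tested and limma called none, with 5 at an unadjusted p under 0.05 and 1 called by limma-voom on reads, and with a median log2 fold change of -0.68 beside -0.04 over all genes tested.

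Of 13 calcium-binding proteins of the secretory pathway, 11 were tested in HepG2, where CALU (calumenin) rose from 73.9 ± 16.5 to 149 ± 15.3 FPKM (SD, n = 3), a log2 fold change of 1.02 ± 0.19 (SE, limma adjusted p = 0.00834). CALU missed the fold threshold with upper-quartile scaling (0.94), with median-ratio scaling (0.91), with the GC trend removed (0.92), and without resistant replicate 1 (0.97), resistant replicate 3 (0.98) or parental replicate 2 (0.87) of HepG2. In Huh7 CALU stood at 163 ± 30.9 FPKM in resistant and 230 ± 26.0 FPKM in parental samples, a log2 fold change of -0.51 that did not pass the fold threshold. Of this list 10 were tested in Huh7 and limma called none, with 6 at an unadjusted p under 0.05 and 1 called by limma-voom on reads.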
